A study of Mus musculus with 30 samples.

Results

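Integrin subunits and laminin chains were followed as RNA in extracts of mouse sciatic nerve that the study calls axoplasm, made by grinding the nerve in buffer and discarding the pellet. The members were all transcripts whose gene symbol begins with Itga or Itgb or names a laminin alpha, beta or gamma chain, a rule that uses names only. This name rule found 60 transcripts of 35 genes among the 20423 transcripts of 14454 genes listed by the authors. Of the 35 genes, 22 encode integrin subunits and 9 encode laminin chains. The other 4 (Itgb1bp1, Itgb1bp2, Itgb3bp and Itgbl1) match by name without encoding a subunit. By annotated type, 36 members were protein-coding transcripts, 14 were retained-intron transcripts and 10 were processed transcripts without an annotated reading frame. The genes Lama1, Lamb3, Itga3, Itgad, Itgal and Itgb6 had no transcript in the tables analysed here.

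The study immunoprecipitated RNA with anti-nucleolin or anti-PTBP1 antibody, from naive nerve and from nerve taken 7 days after a crush at mid-thigh. Nucleolin is a nucleolar protein that also carries mRNAs in axons, and PTBP1 binds pyrimidine-rich tracts of RNA to regulate splicing and mRNA fate. An immunoprecipitation (IP) with antibody that had first met its blocking peptide gave the background (blocked IP), and a portion of the extract was sequenced as input. Each of the 10 groups (input, nucleolin IP, nucleolin blocked IP, PTBP1 IP and PTBP1 blocked IP, naive or injured) had 3 libraries, each from 10 pooled nerves and described as independent repeats. The sources used here do not give strain, genotype, sex or age of the mice, and they name no transgene and no drug beyond the anaesthetic of the surgery.

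Laminins are cross-shaped heterotrimers of an alpha, a beta and a gamma chain that polymerize into the basement membrane around each Schwann cell, perineurial cell and vessel. Integrins are heterodimers of an alpha and a beta subunit that bind laminin, collagen, fibronectin and cell-surface ligands and couple them to the actin cytoskeleton. In peripheral nerve, laminin receptors of Schwann cells are needed for radial sorting and myelination, axonal integrins take part in regrowth, and leukocyte integrins let blood cells adhere and leave vessels.

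Totals over the listed transcripts ran from 7536033 counts in an injured input to 22919174 in a naive PTBP1 blocked IP. Of the listed transcripts, 0.0% to 7.28% were at 0 in the injured inputs and 15.8% to 30.4% in the naive PTBP1 blocked IPs. Injured inputs 2 and 3 stood at 0.0% because the authors listed for input only transcripts with at least 5 counts in them. Transcripts at 0 in a blocked IP can be listed through another group, so these shares do not compare the precision of the libraries. Levels from few counts are imprecise in any library. Of 8 neuron markers 5 were listed, with a summed level of 129 to 181 CPM (counts scaled to library size) in the naive inputs. Of 10 markers of myelinating Schwann cells 7 were listed, and their sum was 25931 to 48901 CPM in the same libraries. The members' levels are therefore those of the whole extract, and the share that came from axons was not tested.

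In input, 7 of 9 coding laminin transcripts and 2 of 5 transcripts of laminin-binding alpha subunits fell after crush. Itgax, Itgam, Itgb2, Itga4, Itgb3 and a transcript of Itgb5 rose. Among 43 member transcripts with enough counts for edgeR's quasi-likelihood test, 8 rose and 11 fell. A call means a Benjamini-Hochberg value below 0.05 over all 14095 transcripts. That was 44.2% of members against 27.8% of all transcripts (14.5% higher and 13.4% lower). The 19 called transcripts belonged to 18 genes of 29 tested, and 16 of the 19 were coding. DESeq2 called 20 members, where it called 32.8% of all transcripts. All 3 injured libraries lay above all 3 naive ones for 9 members (20.9%, against 22.5% of all transcripts) and below them for 16 (37.2%, against 21.9%). The members' median log2 fold change was -0.46, against 0.0017 over all transcripts tested. Scaling by library totals alone moved the median of all transcripts to -0.26 and left 4 members higher and 10 lower. Under that scaling 2327 of all 14095 transcripts were called, only 846 of them higher, so calls over all transcripts also leaned lower. The authors' table of inputs holds only transcripts with at least 5 counts in injured inputs 2 and 3, so members lost from injured nerve are missing from it, and 14 of the 60 members are not in it. In nerve extracts, fewer cells of a type and less RNA per cell cannot be told apart.

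**Figure D1:**
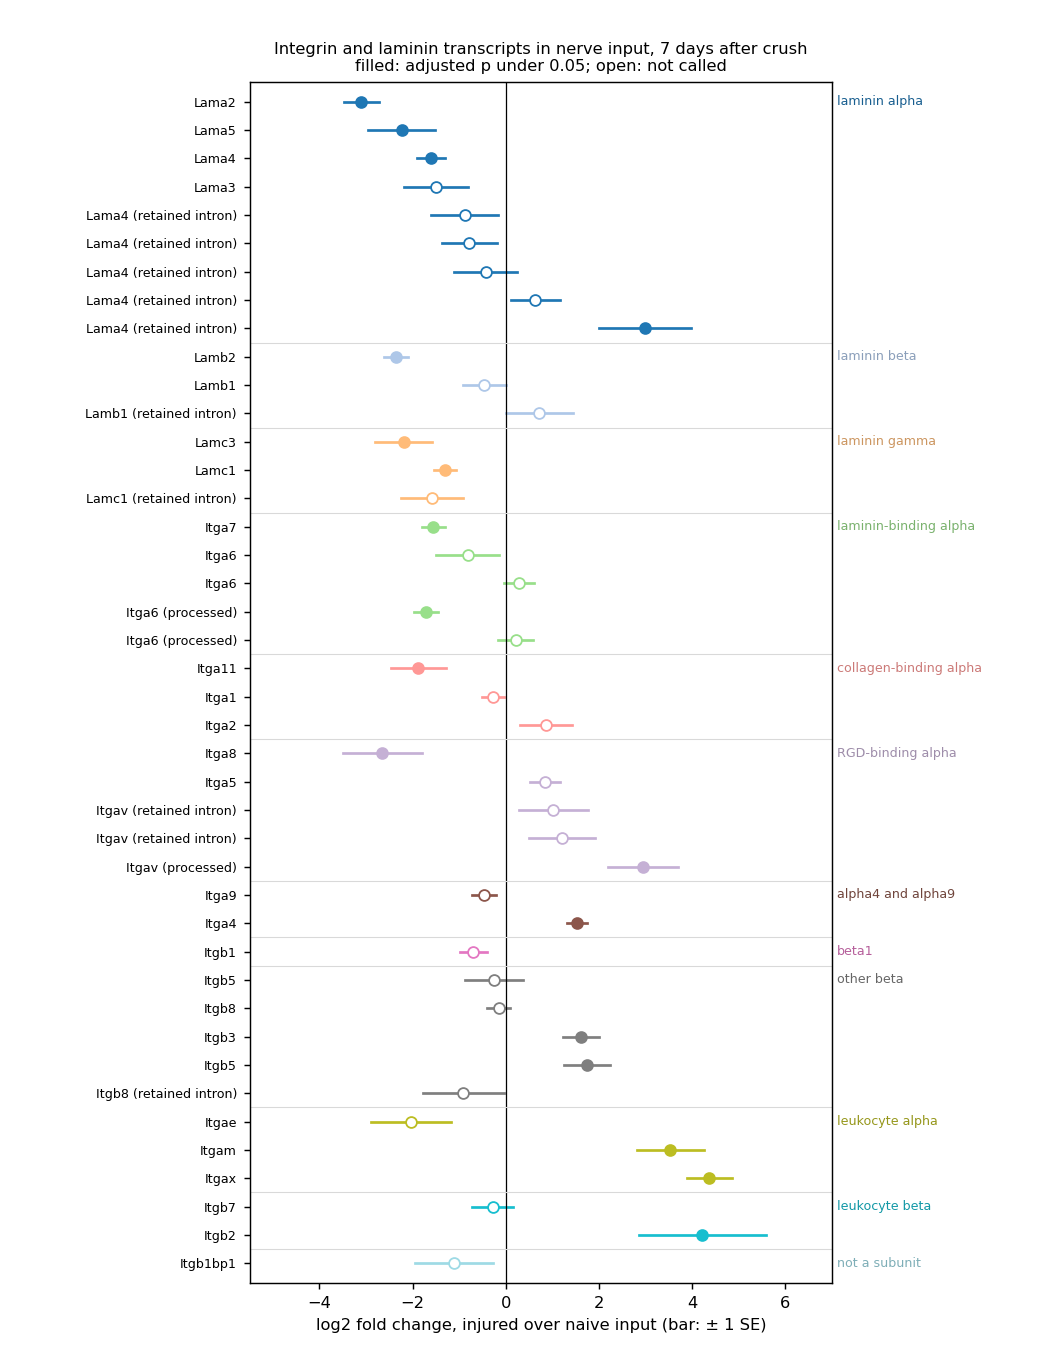
Log2 fold change of member transcripts in injured over naive input (x axis, bar ± 1 SE from the fit of 3 against 3 libraries), grouped by role of the encoded protein. Filled points have an adjusted p under 0.05; the coding laminin transcripts shown lie left of 0, and Itgax, Itgb2 and Itgam lie between 3.53 and 4.37.

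All 9 laminin chains measured by a coding transcript had lower values after crush, and 7 of the 9 passed the test. The median over the 9 was -2.19. Lama2 encodes the alpha2 chain, the main alpha chain of the Schwann cell basement membrane (chromosome 10, 26981285 to 27616843, GRCm38). It stood at 214, 370.1 and 523 CPM in the 3 naive inputs and at 38.8, 28.2 and 61.4 CPM in the injured ones. The groups were far apart, and Lama2 was 8.59-fold lower (log2 -3.10, SE 0.37, edgeR adjusted p = 9.6e-05). Lamb2, the beta2 chain found in synaptic and nerve basement membranes (chromosome 9, 108479857 to 108490530), read 159, 195 and 247 CPM in naive and 41.8, 32.9 and 42.4 CPM in injured input. It fell by 2.36 on the log2 scale (SE 0.25, edgeR adjusted p = 4.3e-05), the smallest adjusted p among the members.

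Lamc1, the gamma1 chain of most laminins, read 86.4, 109.8 and 109.7 CPM in naive and 40.3, 40.6 and 42.3 CPM in injured input. It fell by 1.31 on the log2 scale (SE 0.23, edgeR adjusted p = 0.00133). Lama4, an alpha chain of vessels and endoneurium, read 84.0, 99.9 and 121 CPM in naive and 19.5, 37.8 and 42.2 CPM in injured input, a fall of 1.60 (SE 0.31, edgeR adjusted p = 0.00214). The scarce chains Lamc3 (mean 4.63 to 0.956 CPM) and Lama5 (mean 7.79 to 1.71 CPM) also fell, with edgeR adjusted p of 0.0185 and 0.0353. The call of Lama5 was lost without injured input 2, injured input 3, naive input 1 or naive input 2 (edgeR adjusted p = 0.104, 0.0515, 0.105 and 0.1), and that of Lamc3 without naive input 2 (0.0545). A retained-intron transcript of Lama4 went the other way, at 0.0642, 0.157 and 0.665 CPM in naive and 5.44, 1.70 and 0.708 CPM in injured input (log2 2.99, SE 1.00, edgeR adjusted p = 0.0412). It held 17 counts in the naive and 55 in the injured libraries, and its call was lost without injured input 1 or 2 or naive input 1 or 2 (edgeR adjusted p from 0.0838 to 0.166) and with library totals as the only scaling (0.072). Summed over its transcripts Lama4 had a log2 fold change of -1.22.

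Lamb1, the beta1 chain made by many cells, was the exception among abundant chains. It read 70.8, 185.5 and 382.5 CPM in naive and 97.2, 210.4 and 156 CPM in injured input, so the groups overlapped. The naive libraries spread over a range that spans every injured value, and the log2 difference of -0.46 (SE 0.47) had an edgeR adjusted p of 0.508. Without naive input 3 the log2 difference was 0.26, so its direction reversed. Lama3 stood at 5.89 ± 2.84 CPM in naive and 2.00 ± 1.71 CPM in injured input (SD, n = 3) and did not pass (edgeR adjusted p = 0.123), but did without injured input 3 (0.0269).

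Because chains differ in length, their levels were also divided by transcript length, which allows a comparison within a class. Lama2 made up 59.2%, 68.5% and 71.9% of the alpha-chain level per kb in naive input and 53.1%, 31.5% and 45.8% in injured input. Lama4 held most of the rest, 31.0% ± 5.42 in naive and 53.3% ± 12.7 in injured input (SD, n = 3). Lamb2 made up 69.8%, 51.9% and 39.9% of the beta-chain level in naive and 30.6%, 13.9% and 21.8% in injured input. For the shares of Lama2 and Lamb2 the input groups did not overlap. An exact two-sided permutation test gave p = 0.1 for each, the smallest value that 3 against 3 libraries allow (Benjamini-Hochberg adjusted over the 2, 0.1). Outside input, Lama2 shares were separate in nucleolin IP (31.2% to 39.2% injured, 61.0% to 67.5% naive). They overlapped in PTBP1 IP (40.2% to 52.7% injured, 38.7% to 64.1% naive, without Lama3), nucleolin blocked IP and PTBP1 blocked IP. Lamb2 shares were separate in PTBP1 IP and PTBP1 blocked IP, and overlapped in nucleolin IP and nucleolin blocked IP.

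**Figure D2:**
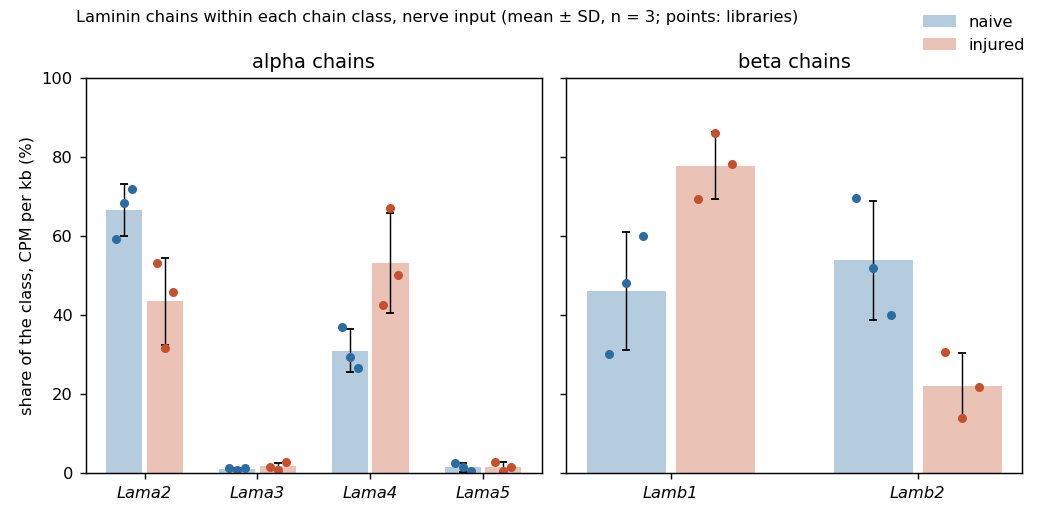
Share of each coding laminin transcript within its chain class (y axis, percent of CPM per kb), with bars for the mean, error bars for the SD (n = 3) and points for libraries. Injured input has a lower share of Lama2 and Lamb2, with no overlap between the 3 naive and the 3 injured points.

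Other basement membrane genes were lower as well, on a list chosen with earlier results of these data known. Of 16 genes 10 were tested, 0 rose and 8 fell, with a median log2 fold change of -1.28. Smoc2, a matricellular calcium-binding protein, fell by 2.51 on the log2 scale. Nid2, a nidogen that links laminin to collagen IV, fell by 2.21, Col4a4 by 2.14 and Col4a3 by 1.91. Of the dystroglycan complex, the second laminin receptor of Schwann cells, 9 of 16 genes were tested, 0 rose and 4 fell (Drp2 by 2.94, Dtna by 1.74, Utrn by 1.42 and Sgcb by 1.37). The list's median was -1.31, and Dag1, which encodes dystroglycan, was not called (log2 -0.77, edgeR adjusted p = 0.381). Drp2 is also on the list of myelinating Schwann cell markers. Markers of myelinating Schwann cells moved with these groups: 6 of 7 listed markers fell and 1 rose, and their sum was 4520 to 6925 CPM in injured against 25931 to 48901 CPM in naive input. Both perineurial markers, Slc2a1 and Cldn1, fell (sum 221 to 353 against 1011 to 1383 CPM), as did 3 of 6 fibroblast markers. All 4 listed muscle markers fell (sum 23.6 to 109 against 623 to 1057 CPM), and so did all 4 listed adipocyte markers (43.4 to 138 against 2647 to 3226 CPM). Of 8 endothelial markers 2 rose and 1 fell (sum 318 to 470 against 306 to 449 CPM). Of 6 pericyte and smooth muscle markers 1 rose and 2 fell. The part of these cells in the laminin values was not tested.

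The laminin-binding alpha subunits showed different patterns by transcript. Itga7, which pairs with Itgb1 as a laminin receptor, read 127, 138 and 193 CPM in naive and 60.6, 45.4 and 50.3 CPM in injured input. It fell by 1.56 on the log2 scale (SE 0.25, edgeR adjusted p = 0.000729). Itga6 was listed by several transcripts, and its most abundant one was a processed transcript at the 3' end of the gene (chromosome 2, 71849029 to 71858416). It read 651, 808 and 1064 CPM in naive and 197, 247 and 325 CPM in injured input, a fall of 1.71 (SE 0.26, edgeR adjusted p = 0.000543). The longer coding transcript of Itga6 had a mean of 24.4 CPM in naive and 29.7 CPM in injured input and was not called (edgeR adjusted p = 0.559). Both transcripts lie in the same gene, and the sources used here do not say how the authors divided reads between overlapping transcripts. Summed over its transcripts Itga6 had a log2 fold change of -1.49.

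Among the collagen-binding alpha subunits, Itga1 was the most abundant and was not called, with 64.8, 70.6 and 76.4 CPM in naive and 63.5, 47.4 and 63.3 CPM in injured input (log2 -0.28, edgeR adjusted p = 0.414). Itga11, a collagen receptor of fibroblasts, fell from 8.44 ± 3.801 to 2.20 ± 1.16 CPM (SD, n = 3; log2 -1.88, edgeR adjusted p = 0.0313). The call of Itga11 was lost without injured input 3, naive input 2 or naive input 3 (edgeR adjusted p = 0.0696, 0.0799 and 0.128), and with library totals as the only scaling (0.051).

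Of the alpha subunits that bind the RGD motif of fibronectin and vitronectin, Itga8 fell and a transcript of Itgav rose. Itga8 read 3.98, 14.0 and 7.47 CPM in naive and 0, 0.726 and 2.83 CPM in injured input (log2 -2.66, SE 0.85, edgeR adjusted p = 0.034). The call of Itga8 was lost without injured input 2, naive input 2 or naive input 3 (edgeR adjusted p = 0.135, 0.15 and 0.0538). Itga5, the fibronectin receptor subunit, read 17.7, 15.9 and 18.5 CPM in naive and 22.3, 40.0 and 30.2 CPM in injured input. The groups did not overlap, yet the difference of 0.83 did not pass (edgeR adjusted p = 0.073), although it did without injured input 1 (0.0369) and with DESeq2 (0.0404). Itgav was listed only by transcripts without the full reading frame, and one of them, a processed transcript, rose from 0.267 ± 0.124 to 2.17 ± 0.769 CPM (SD, n = 3; log2 2.95, edgeR adjusted p = 0.0116). Without injured input 2 its adjusted p was 0.071.

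Itga4, which binds VCAM-1 and fibronectin and is carried by leukocytes and by growing axons, rose with little spread. It read 59.1, 47.6 and 54.0 CPM in naive and 152, 157 and 156 CPM in injured input, 2.89-fold higher (log2 1.53, SE 0.22, edgeR adjusted p = 0.000331). With library totals as the only scaling the adjusted p was 0.0502. Itga9, its closest relative, read 37.3, 41.5 and 47.7 CPM in naive and 28.9, 32.2 and 30.2 CPM in injured input. That pair of groups did not overlap, but the difference of -0.47 had an edgeR adjusted p of 0.209.

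Among coding transcripts, the beta subunits Itgb8 and Itgb1 held the highest integrin levels. Itgb1, the common partner of the laminin- and collagen-binding alpha subunits, read 479, 651 and 1026 CPM in naive and 339, 473 and 517 CPM in injured input. The groups overlapped and the difference of -0.70 (SE 0.29) did not pass (edgeR adjusted p = 0.0923), although it did without naive input 1 (0.0303). Itgb8, which pairs with Itgav and activates latent TGF-beta, stood at 795, 667 and 784 CPM in naive and 658, 499 and 858 CPM in injured input (log2 -0.16, edgeR adjusted p = 0.671). Itgb3, the partner of Itgav in the vitronectin receptor, read 25.6, 21.5 and 8.80 CPM in naive and 71.2, 59.5 and 41.7 CPM in injured input. It rose by 1.62 on the log2 scale (SE 0.39, edgeR adjusted p = 0.00792; 0.0837 with library totals as the only scaling). The more abundant coding transcript of Itgb5, another Itgav partner, read 2.83, 6.95 and 10.3 CPM in naive and 16.3, 33.5 and 17.5 CPM in injured input (log2 1.74, SE 0.50, edgeR adjusted p = 0.021). The call of Itgb5 was lost without injured input 2, naive input 1 or naive input 2 (edgeR adjusted p = 0.122, 0.0532 and 0.0689), and with library totals as the only scaling (0.0811). The other coding transcript of Itgb5 was not called (edgeR adjusted p = 0.793).

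**Figure D3:**
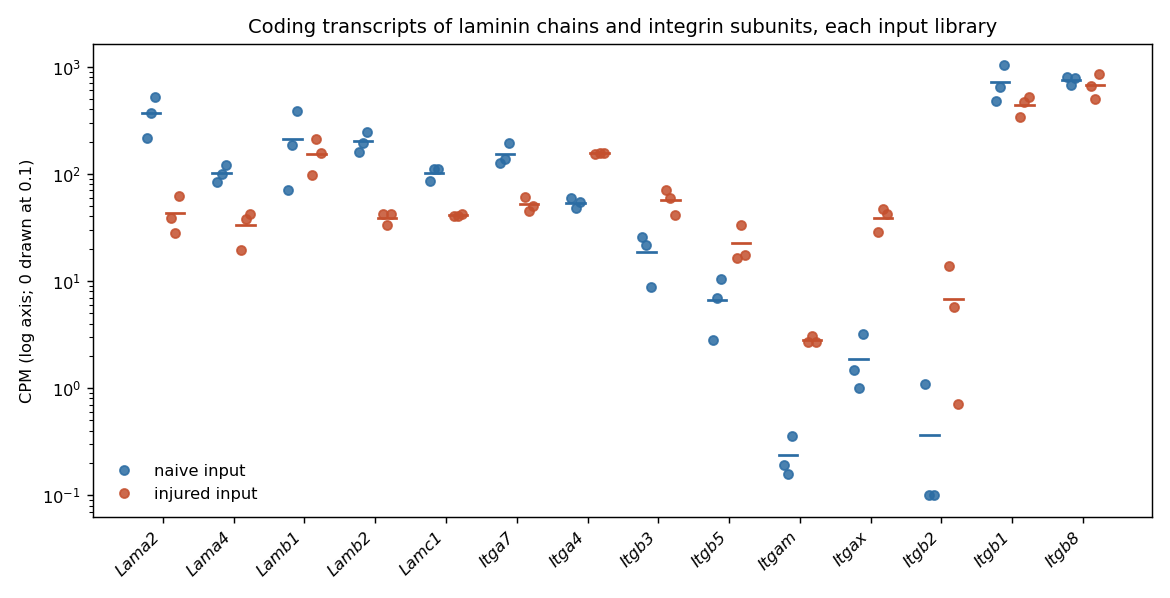
Level of 14 coding transcripts in each input library (y axis, CPM on a log scale, values of 0 drawn at 0.1), naive in blue and injured in red, with short lines for means. Laminin chains other than Lamb1 and Itga7 lie lower in injured libraries, Itga4, Itgb3, Itgb5, Itgam and Itgax lie higher, and Itgb1, Itgb8, Lamb1 and Itgb2 overlap.

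The leukocyte integrins Itgax, Itgb2 and Itgam had the largest rises among the members tested in input. Listing required at least 5 counts in injured inputs 2 and 3. A member near 0 in naive input is therefore listed only through its injured level, and this ranking depends in part on that rule. Itgax, the CD11c subunit of macrophages and dendritic cells (chromosome 7, 128129547 to 128150657), read 1.48, 0.992 and 3.17 CPM in naive and 28.4, 46.9 and 41.9 CPM in injured input. It was 20.7-fold higher (log2 4.37, SE 0.48, edgeR adjusted p = 5.4e-05). Itgam, the CD11b subunit of myeloid cells (chromosome 7, 128062669 to 128118490), was scarce, with 0.193, 0.157 and 0.358 CPM in naive and 2.72, 3.07 and 2.71 CPM in injured input (log2 3.53, SE 0.72, edgeR adjusted p = 0.00322). Its 3 naive libraries held 13 counts in all. Itgb2, the CD18 subunit shared by both, read 1.09, 0 and 0 CPM in naive and 13.8, 5.73 and 0.708 CPM in injured input. The groups overlapped, and the call (log2 4.21, SE 1.37, edgeR adjusted p = 0.0366) was lost with DESeq2 (adjusted p = 0.173) and without injured input 1, injured input 2, naive input 2 or naive input 3 (adjusted p from 0.083 to 0.134).

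Itgae, an alpha subunit of intraepithelial lymphocytes, and Itgb7, its partner, did not rise with them. Itgae read 4.24, 3.60 and 5.73 CPM in naive and 0, 0.404 and 2.48 CPM in injured input (log2 -2.04, edgeR adjusted p = 0.097, 0.0107 without injured input 3 and 0.0385 with DESeq2). Itgb7 had 8.79 ± 0.743 CPM in naive and 7.15 ± 2.12 CPM in injured input (SD, n = 3; edgeR adjusted p = 0.678). Macrophage markers moved with Itgax and Itgam: 5 of 9 listed markers rose, 0 fell, and their sum was 5935 to 8623 CPM in injured against 1047 to 1851 CPM in naive input. Of 8 neutrophil markers 4 were listed and 3 tested, and all 3 tested rose. The sum of the 4 listed was 60.7 to 111 CPM in injured against 1.88 to 6.55 CPM in naive input, where Ltf was at 0. Markers near 0 in naive input are listed only through their injured level, so these neutrophil rises depend in part on the listing rule. The part of macrophages and neutrophils in the integrin values was not tested.

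The starts of the 2 myeloid integrin genes that rose furthest with separate groups and of the 2 laminin genes with the largest fold and the smallest p are shown, as the 250 bases before each start site (RefSeq, GRCm38.p6). They are read 5′ to 3′ on the gene's strand, and capitals mark GAGGAA (the core bound by PU.1-type factors), TGACTCA (AP-1), GGGCGG (GC box) or ACAAAG (SOX core) on either strand. The regions are Itgam chr7:128062390-128062639 (+), Itgax chr7:128129300-128129549 (+), Lama2 chr10:27616943-27617192 (-) and Lamb2 chr9:108479612-108479861 (+).
Itgam: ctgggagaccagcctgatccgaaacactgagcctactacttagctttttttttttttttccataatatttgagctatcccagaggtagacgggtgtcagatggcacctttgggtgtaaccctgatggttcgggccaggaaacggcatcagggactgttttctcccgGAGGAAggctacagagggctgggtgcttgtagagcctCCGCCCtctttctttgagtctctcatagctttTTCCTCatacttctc
Itgax: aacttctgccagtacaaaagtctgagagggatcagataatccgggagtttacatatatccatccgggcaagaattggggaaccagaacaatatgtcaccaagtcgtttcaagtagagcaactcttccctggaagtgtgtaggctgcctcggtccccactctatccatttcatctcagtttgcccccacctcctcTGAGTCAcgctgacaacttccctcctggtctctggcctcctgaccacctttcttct
Lama2: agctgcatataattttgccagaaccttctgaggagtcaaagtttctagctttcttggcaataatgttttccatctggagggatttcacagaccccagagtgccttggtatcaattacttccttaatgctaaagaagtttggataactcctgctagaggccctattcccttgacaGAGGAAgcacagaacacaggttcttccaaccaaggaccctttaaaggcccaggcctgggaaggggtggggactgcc
Lamb2: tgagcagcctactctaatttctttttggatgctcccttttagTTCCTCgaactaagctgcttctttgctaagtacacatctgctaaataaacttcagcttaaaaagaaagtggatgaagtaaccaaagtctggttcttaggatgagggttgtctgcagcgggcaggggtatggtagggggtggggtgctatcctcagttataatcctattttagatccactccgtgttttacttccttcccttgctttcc
The PU.1 core was found in Itgam, Lama2 and Lamb2, and 23.3% of the 32851 promoters of the same length hold it. Itgax held an AP-1 match, which 4.46% hold, and Itgam a GC box, which 32.7% hold. None of the 4 held the SOX core, which 16.5% hold. Of 35 member genes 23 had a promoter in the RefSeq table, and 10 held the PU.1 core, 1 the AP-1 motif, 8 the GC box and 1 the SOX core. These matches describe letters in the sequence and no binding was measured.

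The 24 members tested in input and not called had log2 fold changes from -2.04 (Itgae) to 1.20 (a retained-intron Itgav transcript) and edgeR adjusted p from 0.073 to 0.793. Among them were Itga2, a collagen receptor of platelets and epithelia (0.86), a retained-intron transcript of Lamc1 (-1.59) and 4 of the retained-intron transcripts of Lama4 (-0.88 to 0.64). Itgb1bp1, a regulator of integrin activation, had -1.12. Transcripts of Itga10, Itga2b, Itgb1bp2, Itgb3bp and Itgbl1 were listed in IP tables without an entry for input, so their change in the whole extract was not tested. Itgb4, a partner of Itga6, had an input transcript under the count filter.

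Ordered by level per kb among coding transcripts, Itgb1 (188 ± 73.3 CPM per kb) and Itgb8 (89.1 ± 8.43) led naive input (SD, n = 3). Lama2 (38.4 ± 16.1), Itga7 (38.03 ± 8.76), Lamb1 (36.8 ± 27.3) and Lamb2 (35.6 ± 7.91) followed and did not differ beyond their spread. In injured input, Itgb1 (116 ± 24.3) and Itgb8 (79.9 ± 21.4) still led, followed by Lamb1 (26.7 ± 9.79), Itga4 (15.8 ± 0.284) and Itga7 (12.97 ± 1.94). Itgax, at 0.465 CPM per kb in naive input, stood at 9.66 ± 2.36 in injured input, close to Itgb3 (9.93 ± 2.57). Lama2 stood at 4.45 ± 1.77 CPM per kb there, within the spread of Lama4 and Itga1.

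Further lists give the partners of integrins inside and outside the cell. Of 21 integrin adaptors tested, 4 rose and 5 fell, with a median of -0.094. The adaptors called lower included Lims2, a PINCH protein of the ILK complex (log2 -4.89), and Fermt2, the kindlin of most adherent cells (log2 -2.41). Those called higher included Parvb, a parvin (log2 2.79), and Fermt3, the kindlin of blood cells (log2 2.17). Of 17 other integrin ligands tested, 5 rose and 7 fell, with a median of -0.31. Vtn, vitronectin, fell by 3.41 on the log2 scale, Jam3, a junctional adhesion molecule, by 2.40 and Fbln1, a fibulin, by 2.18. Spp1, osteopontin, a ligand of Itgav and Itga9 receptors, rose by 2.81.

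In the IPs, no member was called over the blocked IP with either antibody, in naive or injured nerve, by edgeR's quasi-likelihood test. Background calls were also 0.0% in each of these 4 comparisons, so the count says nothing particular about the members. At an unadjusted p under 0.05 there were 9 of 44 members (20.5%, against 13% of all transcripts) in naive and 13 (29.5%, against 12.5%) in injured PTBP1 comparisons. For nucleolin there were 7 of 34 (20.6%, against 12%) in naive and 4 (11.8%, against 6.49%) in injured nerve. DESeq2 called 4 and 10 members for PTBP1 (7.56% and 6.2% of all transcripts) and 4 and 1 for nucleolin (6.43% and 2.65% of all). The IP values below are therefore given as levels, and the edgeR adjusted p beside them does not pass.

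In PTBP1 IPs, Itgb1 and Itga4 were among the more abundant integrin messages, although Itga4 lay below Itgb8 in injured PTBP1 IP 3. Itgb1 read 244, 452 and 575 CPM in naive blocked IP and 1162, 1146 and 1111 CPM in naive IP. In injured nerve it read 372, 234 and 406 CPM in blocked IP and 3737, 2346 and 1033 CPM in IP. Every IP library lay above every blocked library in both conditions, which held for no other member with PTBP1. The log2 differences were 1.43 (SE 0.56, edgeR adjusted p = 0.29) in naive and 2.81 (SE 0.59, adjusted p = 0.217, unadjusted p = 0.000272) in injured nerve, and DESeq2 called the injured one (adjusted p = 8.9e-05). With nucleolin, Itgb1 read 262, 343 and 1002 CPM in naive IP against 608, 421 and 768 CPM in blocked IP. In injured nerve it read 369, 476 and 939.8 CPM in IP against 291, 437 and 578 CPM, higher at each of the 3 library numbers. The groups overlapped in both conditions (edgeR adjusted p = 0.934 and 0.998).

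Itga4 showed a large difference between libraries of one group. With PTBP1 it read 187, 155 and 15.1 CPM in naive blocked IP and 1833, 599.7 and 102 CPM in naive IP. After injury it read 475, 444 and 197 CPM in blocked IP and 3899, 3578 and 543 CPM in IP. The naive groups overlapped and the injured groups did not. The log2 differences were 2.83 (SE 1.06, edgeR adjusted p = 0.271) and 2.85 (SE 1.06, adjusted p = 0.259), and their difference was 0.018 (edgeR adjusted p = 1). With nucleolin, Itga4 read 144, 71.8 and 65.7 CPM in naive blocked IP and 266, 157 and 145 CPM in naive IP, then 137, 267 and 137 CPM and 549, 533.5 and 266 CPM in injured nerve. Library 3 held the lowest PTBP1 IP level in both conditions, and library 3 also had the fewest transcripts at 0 counts in each PTBP1 IP group (3.10% in naive and 1.64% in injured nerve). Whether the 2 observations are linked was not tested.

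**Figure D4:**
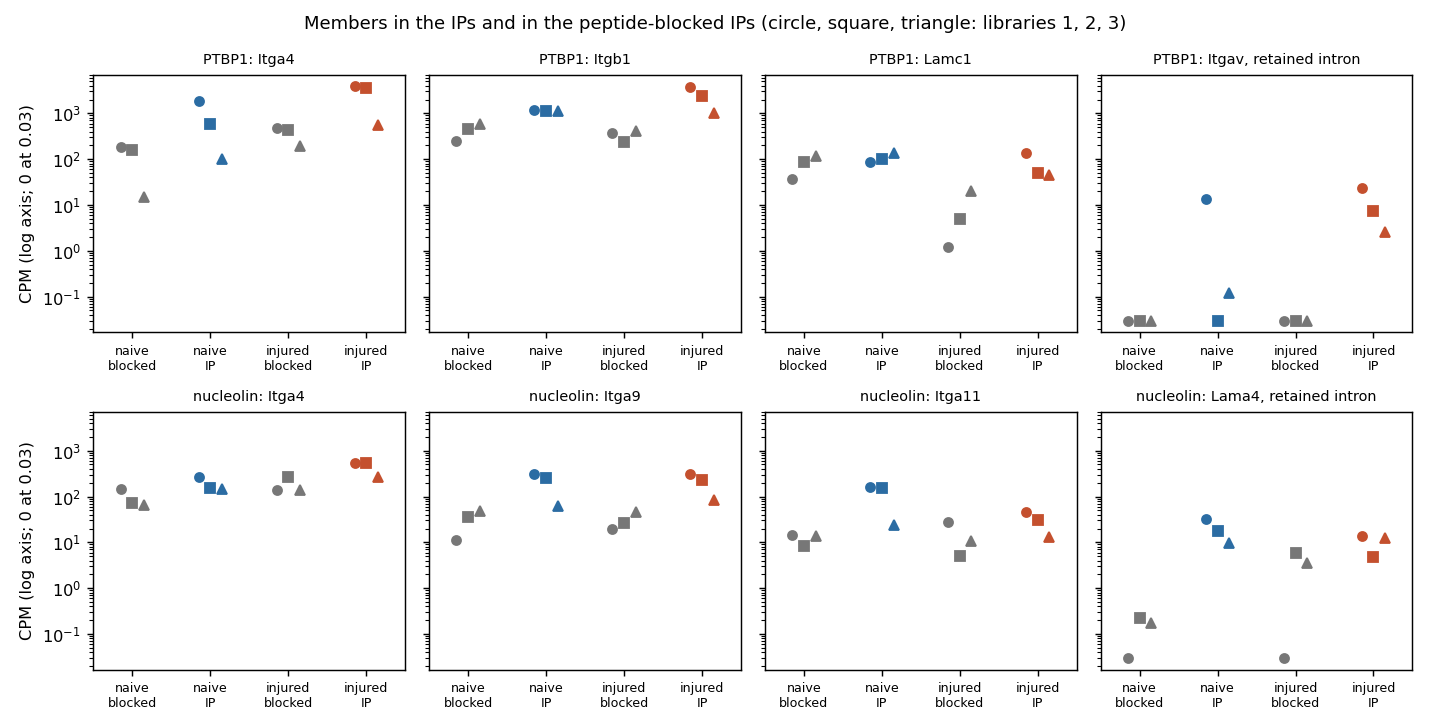
Level of 7 members in blocked IP (grey) and IP (blue naive, red injured) libraries with PTBP1 (top row) or nucleolin (bottom row); y axis, CPM on a log scale, 0 drawn at 0.03, one marker shape per library number. Itgb1 with PTBP1 and Itga9 with nucleolin lie above the blocked IP in all libraries of both conditions, and library 3 is the lowest IP point for Itga4 in both rows and for Itga9 and Itga11 in the nucleolin row.

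Lamc1 and Itgb8 lay above blocked IP in all injured PTBP1 libraries, called by DESeq2 (adjusted p = 0.00605 and 0.0286) and not by edgeR. Lamc1 read 1.18, 5.01 and 20.4 CPM in injured blocked IP and 139, 49.8 and 45.6 CPM in injured IP, but 37.7, 85.6 and 120 against 87.3, 99.5 and 139.5 CPM in naive nerve. Its blocked IP level was thus the lower one after injury, and the interaction of 2.71 (SE 1.33) had an edgeR adjusted p of 0.667. Itgb8 read 92.6, 237 and 376 CPM in injured blocked IP and 1021, 635.5 and 785 CPM in injured IP (log2 1.79, edgeR adjusted p = 0.237). Lamb2 went the other way: its IP libraries (41.1, 50.0 and 72.6 CPM) all lay below its blocked ones (148, 121 and 124 CPM) in injured nerve (log2 -1.26, edgeR adjusted p = 0.348).

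With nucleolin, Itga9 was separate from blocked IP in both conditions. This relative of Itga4 read 11.05, 36.1 and 47.7 CPM in naive blocked IP and 313, 255 and 61.1 CPM in naive IP. In injured nerve it read 20.1, 26.0 and 45.4 CPM against 313, 226 and 82.4 CPM. The log2 differences were nearly equal, 2.73 (SE 0.72, edgeR adjusted p = 0.119) and 2.76 (SE 0.72, adjusted p = 0.196), and DESeq2 called both (adjusted p = 0.00388 and 0.00998). Without naive nucleolin IP 3 the naive difference of Itga9 passed with edgeR (adjusted p = 0.0497). With PTBP1 its IP libraries lay below or among the blocked ones (log2 -1.60 and -1.07, edgeR adjusted p = 0.531 and 0.777). Itga11 read 14.8, 8.47 and 13.8 CPM in naive blocked IP and 159.5, 152 and 23.9 CPM in naive IP (log2 3.18, edgeR adjusted p = 0.128), while its injured groups overlapped. A processed transcript from the first part of the Itga6 gene read 0.174, 1.02 and 14.9 CPM in naive blocked IP and 328, 315 and 61.5 CPM in naive IP. That difference of 5.45 (SE 1.34) had the smallest edgeR adjusted p among members over blocked IP with nucleolin in naive nerve, 0.093, and it was 0.0229 without blocked library 3. For Itga6, Itga9 and a retained-intron transcript of Itgav, every IP library lay above every blocked library in both conditions. Library 3 was again the lowest IP level of Itga6, Itga9 and Itga11.

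Retained-intron members had larger differences than coding ones, with a group at 0 set to its counting floor. With PTBP1 in injured nerve the 9 retained-intron members had a median log2 difference of 5.11, and the 28 coding members one of -0.56. Over all transcripts, the medians were 1.05 for 1913 retained-intron and -0.11 for 10096 coding transcripts, so the same order held for transcripts in general. With nucleolin the 6 retained-intron members had medians of 2.45 in naive and 2.67 in injured nerve, against -0.0099 and 0.12 for 26 coding members. Listing required 5 counts in all 3 libraries of a group, so a transcript at 0 in blocked IP is listed only because another group is high. Several of these members had no count in any blocked library. The Itgav retained-intron transcript of chromosome 2, 83724397 to 83756797, read 13.6, 18.2 and 3.32 CPM in injured PTBP1 IP against 0 in all 3 blocked libraries. Against a floor of 3 counts for the whole group, that is at least 154-fold higher by counting error alone, without the spread between libraries. Because listing selects such transcripts, the folds and medians of this paragraph describe the listed counts and are no support for binding. The other, at 83724466 to 83748372, read 23.5, 7.22 and 2.56 CPM, at least 145-fold higher. A retained-intron transcript of Lama4 read 4.05, 3.48 and 0.573 CPM, at least 34.6-fold higher. In naive nerve 1 of 3 PTBP1 IP libraries was at 0 for each of these 3 transcripts. In nucleolin IPs the Lama4 transcript read 32.7, 17.8 and 9.61 CPM in naive IP against 0, 0.226 and 0.173 CPM in blocked IP, and the injured groups overlapped.

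Every IP library lay above every blocked library for 12 of 44 members (27.3%) with PTBP1 in injured nerve, against 16.6% of all transcripts. The count was 2 (4.55%, against 9.26%) in naive nerve. With nucleolin it was 7 of 34 (20.6%) in both conditions, against 12.3% in naive and 12% in injured nerve. The share of members in naive PTBP1 IPs was thus below that of all transcripts. Among coding members the PTBP1 count was 5 of 28 in injured nerve (12.7% of all coding transcripts) and 1 of 28 in naive nerve (7.27%). With nucleolin it was 4 of 26 in naive (8.69%) and 3 of 26 in injured nerve (8.87%). Members without a count in blocked IP are listed only through a higher group, so these counts are no support for binding either.

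The pyrimidine runs of 3 transcripts described above are shown because PTBP1 is known for binding such tracts. All 3 transcripts lay above blocked IP at every library number in injured PTBP1 IPs. Whether run length went with IP level was not tested. Each is a window of 30 bases, with the longest run of C and T in capitals (GENCODE transcripts, GRCm38, plus strand). For Itga4 the run is longer than the window, and its first 30 bases are given (chr2:79331160-79331189, 3' UTR). The others are Itgb1 (chr8:128732846-128732875, 3' UTR) and the second Itgav retained-intron transcript (chr2:83748137-83748166, no reading frame).
Itga4: TTTTCCTTTCCTTTTCCTTTCCTCTCCTCT
Itgb1: attttaCCTTTTTTTTTTTCTTTaattcct
Itgav: gcccacaCTCTTTCTCTCTTCCTgctcagt
The Itga4 run was 61 bases long, and 1.58% of the 19974 listed transcripts with a sequence hold one at least as long. For Itgb1 the run was 17 bases (26.18% of transcripts) and for Itgav 16 bases (31.5%). The coding transcript of Lamb1 also held a run of 17 bases, and with PTBP1 it lay below blocked IP at every library number in both conditions. The median of the longest run was 13 bases over the 60 members and over all transcripts. The letters TCTT occurred 6.76 times per kb in Itga4, 4.46 in Itgb1 and 8.14 in Itgav, beside a median of 5.05 over listed transcripts. A longer transcript offers more positions for a run, and the run lengths were not adjusted for this. Binding to these runs was not measured.

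Across the IP and blocked IP libraries the fall of Lama2 with injury was present as well. In nucleolin IPs Lama2 read 496, 368 and 459 CPM in naive and 86.3, 84.3 and 104 CPM in injured nerve. It was the only member edgeR called there (log2 -2.27, SE 0.37, edgeR adjusted p = 0.0242), where 0.828% of all transcripts were called. In nucleolin blocked IPs it read 606, 406 and 504 CPM in naive and 143, 67.2 and 92.0 CPM in injured nerve, again the only member called (log2 -2.33, SE 0.37, edgeR adjusted p = 0.0146; 1.55% of all transcripts). The IP call of Lama2 was lost without injured IP 1, 2 or 3 or naive IP 1 or 2 (edgeR adjusted p = 0.127, 0.17, 0.0574, 0.062 and 0.098). The blocked IP call was lost without injured blocked IP 2 (edgeR adjusted p = 0.0617) and in a fit of only the 6 blocked libraries (0.108). Markers of myelinating Schwann cells were lower in the same libraries, with sums of 3607 to 7164 CPM in injured and 15238 to 30933 CPM in naive nucleolin IP, and of 2580.1 to 8177 against 15214 to 36326 CPM in blocked IP. Their part in the Lama2 values was not tested. The change of nucleolin enrichment of Lama2 with injury was 0.060 (edgeR adjusted p = 1).

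With PTBP1, Lama2 read 274.5, 188 and 320.4 CPM in naive IP and 25.7, 35.3 and 85.6 CPM in injured IP. The groups did not overlap, but the difference of -2.42 (SE 0.62) did not pass with edgeR (adjusted p = 0.255), where 0.00688% of all transcripts were called, and DESeq2 gave an adjusted p of 0.000969. Lamb2 read 212, 215 and 226 CPM in naive and 41.1, 50.0 and 72.6 CPM in injured PTBP1 IP (log2 -1.99, edgeR adjusted p = 0.255). Lama4 read 248, 145 and 109 CPM in naive and 23.4, 28.0 and 44.5 CPM in injured PTBP1 IP (log2 -2.39, edgeR adjusted p = 0.255). DESeq2 called both Lamb2 and Lama4 (adjusted p = 0.00397 and 0.00051). The myelinating Schwann sum was 7043 to 17640.2 CPM in injured and 26080.4 to 45709.9 CPM in naive PTBP1 IP. In PTBP1 blocked IPs no member was called either (0.0275% of all transcripts), with 8 members (18.2%, against 21.7% of all) at an unadjusted p under 0.05 and 7 called by DESeq2 (17.2% of all). In PTBP1 IPs these counts were 8 (18.2%, against 10.3%) and 5 (4.68% of all).

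**Figure D5:**
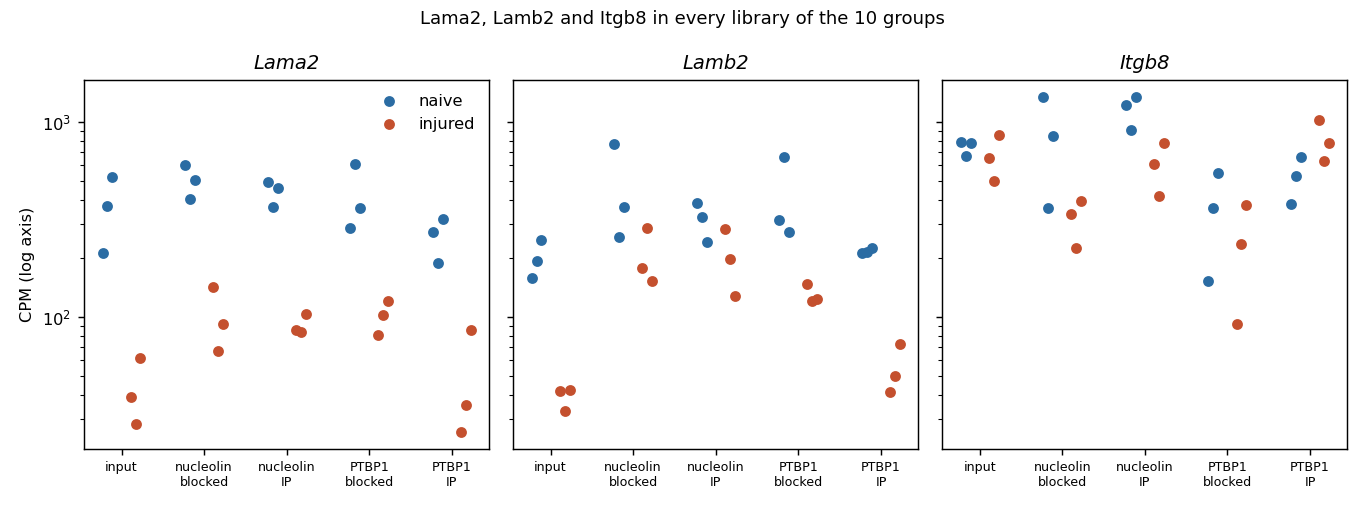
Level of Lama2, Lamb2 and Itgb8 in each of the 30 libraries (y axis, CPM on a log scale), naive in blue and injured in red. Lama2 is lower in every injured library than in every naive library of the same kind; Itgb8 overlaps in input and in PTBP1 IPs.

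No member had a change of IP over blocked IP with injury by edgeR, for nucleolin or PTBP1, and 0.0% of all transcripts were called in either. At an unadjusted p under 0.05 there were 2 members with each antibody, 5.88% against 2.55% of all transcripts for nucleolin and 4.55% against 7.89% for PTBP1. DESeq2 called 0 members for nucleolin and 1 for PTBP1, Itgb1bp2, the muscle protein melusin, named after its value was seen (0.169% and 2.89% of all transcripts). It read 11.4, 14.3 and 6.68 CPM in injured PTBP1 blocked IP and 0, 0 and 0.2 CPM in naive blocked IP. In IP it read 1.94, 3.75 and 0.611 CPM in injured and 0, 19.3 and 0.835 CPM in naive nerve. Itgax was higher in injured nucleolin libraries, with 97.7, 85.2 and 61.5 CPM in IP and 57.5, 90.1 and 82.8 CPM in blocked IP against at most 26.9 CPM in any naive one. Neither difference passed with edgeR (adjusted p = 0.416 and 0.166), and DESeq2 called that in blocked IP (0.0271). Macrophage markers were higher there too, with sums of 3218 to 10787 CPM in injured and 1184 to 1908 CPM in naive nucleolin IP, and their part in the Itgax values was not tested.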

How the data were processed

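The authors deposited raw counts per Ensembl transcript, in tables of transcripts with at least 5 counts in all 3 libraries of a group, or, for input, in injured inputs 2 and 3. The submitters' processing notes name CASAVA 1.8.2, edgeR and the builds mm10 and GRCm38; the aligner, counting tool and use of strand are not stated there. The tables hold 114 further columns of values that were not used. Counts were scaled to CPM and tested with edgeR 4.0.16 in R 4.3.3 (TMM scaling, filterByExpr, quasi-likelihood test, Benjamini-Hochberg adjustment over all transcripts tested, threshold 0.05). The 6 inputs were fitted alone, and the 12 libraries of each antibody together. DESeq2 1.42.0, other scalings, no filter, gene sums, a replicate block and leaving out each library were alternatives. Scripts were tested on simulated data. Members and gene lists were chosen with earlier results of these data known. Named members were the called transcripts, the most abundant of each role and partner subunits; from each list, up to 4 called genes with the largest change. The retained-intron and processed transcripts named in the IPs fall outside that rule and were chosen after their values were seen. Libraries are described as independent repeats; p-values measure the spread between them. Totals of 7536033 to 22919174 counts set the precision. Exact permutation tests were two-sided. The values of 1 member are not reported here; it remains in the counts and medians.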

Additional observations from a re-analysis of the deposited data

How the results depend on the processing

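In input, Lama2, the coding Lama4, Lamb2, Lamc1, Itga7, Itgam, Itgax and the processed Itga6 passed under all 13 alternatives. The input count ranged from 13 to 21 members when 1 library was left out, beside 2514 to 3821 calls over all transcripts. It was 13 both without injured input 2 and without naive input 2. For PTBP1 over blocked IP DESeq2 called 10 members in injured (22.7%, against 6.2% of all transcripts) and 4 in naive nerve (9.09%, against 7.56%). For nucleolin it called 1 in injured (2.94%, against 2.65%) and 4 in naive nerve (11.8%, against 6.43%), where edgeR called 0. Between injured and naive nerve DESeq2 called 5 in PTBP1 IP (11.4%, against 4.68% of all transcripts) and 7 in PTBP1 blocked IP (15.9%, against 17.2%). It called 2 in nucleolin IP (5.88%, against 6.2%) and 7 in nucleolin blocked IP (20.6%, against 13.6%). By edgeR these 4 counts were 0, 0, 1 and 1. For the change of PTBP1 enrichment with injury DESeq2 called 1 member (2.27%, against 2.89%). Fitting only the 6 libraries compared gave 2 in nucleolin IP (495 of 11625 transcripts called) and 0 in nucleolin blocked IP (0 of 11237). With 1 library left out, counts were 0 to 1 for nucleolin over blocked IP in naive nerve, 0 to 1 for nucleolin IP and 0 to 2 for nucleolin blocked IP. Over all transcripts these fits called 0 to 320, 2 to 27 and 13 to 419. The cause of these differences was not tested. Direction reversed on summing to genes for the coding Itga6 (-1.49) and a retained-intron Lama4 in input (-1.22) and for a retained-intron Lama4 in injured PTBP1 IP over blocked IP (-0.93), since other transcripts of the gene then enter. Lamb1 ranged from -0.89 to 0.26 with 1 input left out. Of 408 values with 1 library left out, 372 kept their side of the threshold or range, 29 were weaker, 6 stronger and 1 reversed; of 522 under other alternatives, 481 kept it, 29 were stronger, 9 weaker and 3 reversed.

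Libraries share replicate numbers, but no comparison had a correlation over 0.1 for all 3 numbers, while 5 or 6 of 6 libraries correlated best with their own number. A replicate block gave 21 members in input (30.9% of all transcripts called) and 3 in nucleolin blocked IP (4.01%). With the block Itgb1, Itgae and Lama3 passed in input (adjusted p = 0.0231, 0.0297 and 0.0396), Itga7 passed in nucleolin blocked IP (0.0282) and the retained-intron Lama4 no longer passed in input (0.0804). Members at a few counts, and transcripts at or near 0 in the blocked IPs, have imprecise levels.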
